A study of Mus musculus with 3 samples.

Results

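The Trbv genes encode the variable (V) segments of the T cell receptor beta chain, and their transcripts were described in RNA of activated regulatory T cells of the mouse. All genes whose GENCODE M21 symbol starts with Trbv were taken, which gave 35 of the 55536 genes counted. By annotation 22 of them are functional segments (biotype TR_V_gene) and 13 are pseudogenes (biotype TR_V_pseudogene). Polyadenylated RNA was sequenced from primary cells labelled as activated regulatory T cells, of male sex and aged 3 weeks. The cells are 1 biological replicate, and the 3 libraries made from it carry the labels of technical replicates 1, 2 and 3, which number the libraries below. They form 1 group, so no treated, mutant or control cells stand beside them, and every SD and p-value below measures only the spread between these technical libraries. The labels used here do not give the mouse strain, the stimulus, the number of animals or the step at which the libraries were split.

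Each developing T cell joins 1 V segment to a D and a J segment, and the joined exon is spliced to a constant exon, so the V segment in a cell's beta chain messenger RNA records which V segment that cell recombined. The V segment supplies most of the receptor's variable domain, including its first complementarity-determining loops, while the loop at the V-D-J junction (CDR3) begins at a conserved cysteine near the segment's 3′ end. Mouse strains are known to differ in which V segments their mature T cells keep, because superantigens of endogenous retroviruses delete cells bearing certain segments. In bulk RNA, the number of cells using a segment and the RNA that each such cell makes cannot be told apart.

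Reads assigned to genes numbered 28419259 to 31959927 per library. The cells carried the markers of the label. All 7 alpha-beta T cell markers and all 4 regulatory T cell markers reached 1 TPM (transcripts per 1000000, a level scaled for length) in every library, with summed levels of 9135 to 11064 TPM and 719 to 864 TPM. Markers of other cells were low for CD8 T cells (20.4 to 28.4 TPM over 2 genes), B cells (10.6 to 29.1 TPM over 4 genes), natural killer cells (7.40 to 10.8 TPM over 3 genes, with Ncr1 at 0 throughout) and gamma-delta T cells (76.7 to 80.3 TPM over 5 genes). The limit of 1 TPM alone did not set the label's markers apart. It was also reached in every library by 2 of 2 CD8 T cell and 3 of 4 B cell markers. The same held for 2 of 3 natural killer cell and 4 of 5 gamma-delta T cell markers. Of 5 thymocyte markers only Cd1d1 reached 1 TPM in every library, and Rag1, Rag2 and Ptcra were at 0 reads in some. The thymocyte markers summed to 90.7, 96.4 and 79.9 TPM in libraries 1, 2 and 3. All 3 erythroid markers reached 1 TPM in every library. They stood apart in library 1, where they summed to 8366 TPM. Their sums were 677 and 497 TPM in libraries 2 and 3, against 864 and 719 TPM for regulatory T cell markers there.

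Trbv transcripts took 0.0416% of gene reads in library 1, 0.0405% in library 2 and 0.0603% in library 3. These shares came from 12635, 11516 and 19263 reads, and their exact 95% binomial intervals, which cover counting error only, spanned 0.0409% to 0.0423%, 0.0398% to 0.0413% and 0.0594% to 0.0611%. Library 3 thus lay above the other libraries by more than counting error. The beta chain constant genes Trbc1 and Trbc2, to whose exons every productive V segment is spliced, moved the same way. Trbv reads equalled 24.5%, 24.8% and 24.7% of Trbc1 and Trbc2 reads in libraries 1, 2 and 3, so the ratio differed little between libraries (mean 24.7% ± 0.180, SD, n = 3). On the length-scaled level, Trbv summed to 1899, 1867 and 2475 TPM, against 4199, 4049 and 5403 TPM for the constant genes. The alpha chain V segments (128 Trav genes) summed to 1352, 1335 and 1605 TPM.

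Functional segments held nearly all Trbv reads. They took 99.6% of Trbv reads in each library, and the pseudogenes took 0.439%, 0.408% and 0.431% in libraries 1, 2 and 3. Of the 35 genes, 22 were detected, meaning 10 or more reads in every library, and 26.7% of all genes passed the same limit. Among functional segments 21 of 22 were detected, and among pseudogenes 1 of 13. Functional V segments of the other receptor and chain loci, taken by the same biotype, were detected in 94 of 122 cases (77.0%), and their pseudogenes in 1 of 21 (4.76%). The functional segment that was not detected was Trbv21, with 6, 3 and 4 reads in libraries 1, 2 and 3. The detected pseudogene was Trbv24, described below. Pseudogenes Trbv6, Trbv7, Trbv10, Trbv11, Trbv25, Trbv27 and Trbv28 had 0 reads in every library, which allows each up to 0.0237%, 0.0260% and 0.0156% of the Trbv reads of libraries 1, 2 and 3. The remaining 6 pseudogenes, Trbv24 among them, had some reads.

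**Figure D1:**
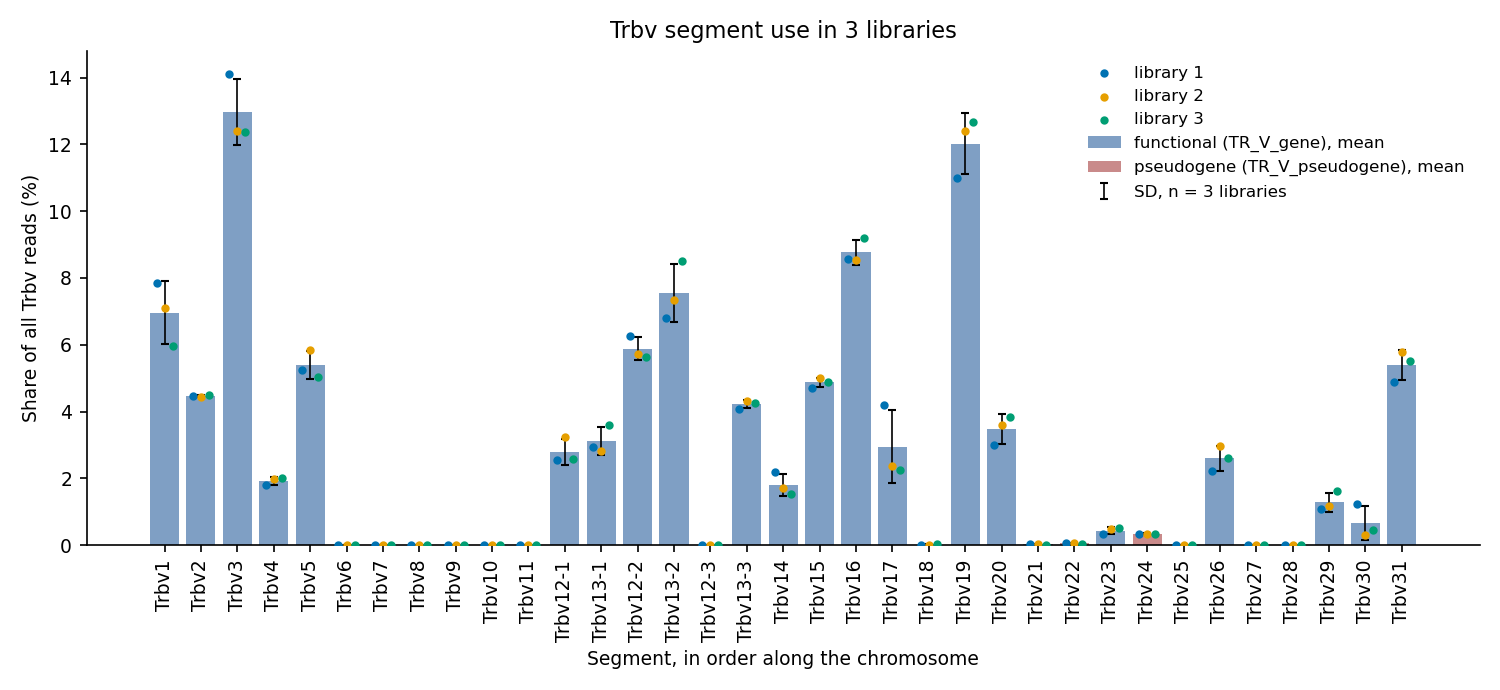
Share of all Trbv reads (%, y axis) for each of the 35 segments in their order along the chromosome (x axis); bars are means of 3 libraries, blue for functional segments and red for pseudogenes, error bars are SD and dots are single libraries. Trbv3 and Trbv19 stand highest, at 13.0% and 12.0%, and Trbv24 is the 1 pseudogene with a visible bar, at 0.342%.

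Use was uneven, with Trbv3 and Trbv19 at the top. Trbv3 (older name Tcrb-V16) took 14.1%, 12.4% and 12.4% of Trbv reads in libraries 1, 2 and 3, and Trbv19 (Tcrb-V6) took 11.0%, 12.4% and 12.7%. Trbv3 was higher in library 1 and Trbv19 in library 3, so the pair, at 13.0% ± 0.989 and 12.0% ± 0.907 on average (SD, n = 3), could not be ordered. Trbv16 (Tcrb-V11) followed with 8.56%, 8.54% and 9.20%, below Trbv19 in every library, by 3.25 percentage points on average. Trbv13-2 (Tcrb-V8.2) had 6.81%, 7.34% and 8.51%, below Trbv16 in every library, by 1.21 points on average. The rest of the 8 most used were Trbv1 (Tcrb-V2) at 6.96% ± 0.948, Trbv12-2 (Tcrb-V5.1) at 5.88% ± 0.344, Trbv31 (Tcrb-V14) at 5.40% ± 0.452 and Trbv5 (Tcrb-V1) at 5.38% ± 0.420. No neighbours among these last segments, nor Trbv13-2 and Trbv1, differed by a mean above 2 SD of their paired difference with 1 sign in all libraries. By that rule 5 of the 21 neighbouring pairs of detected segments could be ordered. The other ordered pairs were Trbv15 over Trbv2, Trbv13-3 over Trbv20 and Trbv26 over Trbv4.

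The 3′ ends of the segments show where the CDR3 begins and how similar the most used segments are there. The stretches below are the last 50 bases of the transcripts in GENCODE M21, on build mm10, 5′ to 3′ along the transcript. Capitals mark the in-frame codon of the conserved cysteine. The first 4 are the most used segments, and Trbv1 and Trbv31 are the segments that lie apart from the main cluster.
Trbv3 (chr6:41048779-41048828, plus strand): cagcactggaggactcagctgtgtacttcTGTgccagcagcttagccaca
Trbv19 (chr6:41178999-41179048, plus strand): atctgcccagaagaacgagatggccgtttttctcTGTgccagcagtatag
Trbv16 (chr6:41152181-41152230, plus strand): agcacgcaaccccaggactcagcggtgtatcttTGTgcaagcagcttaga
Trbv13-2 (chr6:41121783-41121832, plus strand): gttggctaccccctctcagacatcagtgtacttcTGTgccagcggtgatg
Trbv1 (chr6:40891836-40891885, plus strand): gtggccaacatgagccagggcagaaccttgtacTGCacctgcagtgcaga
Trbv31 (chr6:41557691-41557740, minus strand): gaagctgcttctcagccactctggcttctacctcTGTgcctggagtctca

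For each segment the transcript with most reads was used. Each of the 21 functional segments whose transcript had an annotated start codon had an in-frame cysteine codon within its last 30 bases. It was TGT in 19 and TGC in 2 (Trbv1 and Trbv23). The codon began 14 to 21 bases before the annotated end. The letters TGTGCCAGC, which hold the cysteine codon and the codons for the alanine and serine after it, were searched on the transcript strand in the last 50 bases. They were present in 13 of 22 functional segments (59.1%) and 4 of 13 pseudogenes (30.8%), in 0 of 167 Trav transcripts and in 43 of 141464 other transcripts (0.0304%). Trbv3, Trbv19 and Trbv13-2 carry them. Trbv16, Trbv1 and Trbv31 do not. A search by letters misses synonymous codons. The printed end of Trbv16 holds TGTGCAAGC, which codes for the same amino acids.

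The lower end of the order ran over a wide range. After the 8 most used, mean shares went down from 4.87% for Trbv15 over Trbv2, Trbv13-3, Trbv20, Trbv13-1, Trbv17 and Trbv12-1 to 2.61% for Trbv26. Trbv4 had 1.93%, Trbv14 1.81% and Trbv29 1.29%. The 3 lowest functional segments all lie in the proximal part of the main cluster. Trbv30 (Tcrb-V18) had 156, 36 and 86 reads in libraries 1, 2 and 3, Trbv23 (Tcrb-V20) had 41, 56 and 98, and Trbv21 (Tcrb-V19) had 6, 3 and 4. Of the 22 functional segments, 9 had more than the 4.55% that equal use would give and 3 had under 1%. The median functional share was 3.85%, so Trbv3 stood 3.37-fold above the median. The 8 most used segments together took 64.7%, 65.1% and 64.9% of Trbv reads.

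The distribution as a whole differed little between libraries. The effective number of segments (the exponential of the Shannon entropy of the shares, which equals the number of segments that equal use would need) was 16.9, 16.8 and 16.8 in libraries 1, 2 and 3. Spearman's rho between libraries over the shares of the 22 functional segments was 0.970 for libraries 1 and 2, 0.971 for 1 and 3 and 0.990 for 2 and 3. These correlations describe technical libraries of 1 biological replicate.

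Shares of reads favour longer transcripts, so the levels per length were set beside them. Trbv3 was first in every library, with a mean of 232 ± 32.0 TPM (SD, n = 3). Trbv13-2 was second by mean, at 191 ± 53.7 TPM. In library 1 it had 155.9 TPM, below Trbv16 at 163.2 TPM. Trbv16 had 184 ± 38.4 TPM and Trbv19 170 ± 37.2 TPM, so Trbv19, whose transcript of 566 bases is the longest of the 35, stood below Trbv3, Trbv13-2 and Trbv16 in mean level. Trbv1 had 136 ± 8.47 TPM, Trbv31 132 ± 25.96 TPM, Trbv12-2 127 ± 16.8 TPM and Trbv5 122 ± 13.6 TPM. The same 8 segments therefore led on either scale. Over functional segments, length and share had a Spearman's rho of 0.536 and reads and TPM 0.982, given as descriptions over 22 segments.

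The Trbv12 and Trbv13 families lie interleaved in the order Trbv12-1, Trbv13-1, Trbv12-2, Trbv13-2, Trbv12-3, Trbv13-3. The functional members are near copies. Trbv13-2 and Trbv13-3 were 90.6% identical, Trbv13-1 and Trbv13-2 88.6%, and Trbv12-1 and Trbv12-2 88.3%. They were used at different levels. Within the Trbv13 family, Trbv13-2 had 861, 845 and 1640 reads, Trbv13-3 516, 496 and 820, and Trbv13-1 372, 325 and 696 in libraries 1, 2 and 3, an order kept in every library. Within the Trbv12 family, Trbv12-2 had 792, 660 and 1084 reads, and Trbv12-1 had 321, 373 and 496. The pseudogene Trbv12-3 had 0, 2.02 and 2.01 reads. The families took 14.9% ± 1.32 (Trbv13) and 8.67% ± 0.406 (Trbv12) of Trbv reads.

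The ends of these 6 segments are shown because reads of near copies could be assigned to the wrong one. Capitals mark the in-frame cysteine codon, or, in Trbv12-3, the first codon of TGTGCCAGC. Trbv13-2 is shown above.
Trbv13-1 (chr6:41116419-41116468, plus strand): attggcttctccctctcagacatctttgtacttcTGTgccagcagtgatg
Trbv13-3 (chr6:41130536-41130585, plus strand): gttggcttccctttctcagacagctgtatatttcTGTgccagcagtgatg
Trbv12-1 (chr6:41114018-41114067, plus strand): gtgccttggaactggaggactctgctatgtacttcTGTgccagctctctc
Trbv12-2 (chr6:41119315-41119364, plus strand): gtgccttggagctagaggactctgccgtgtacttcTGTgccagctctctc
Trbv12-3 (chr6:41128027-41128076, plus strand): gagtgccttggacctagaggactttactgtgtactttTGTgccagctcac

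In the annotated transcripts, stretches of 50 bases, the read length that the deposited lengths imply, told these copies apart by exact match. Stretches with mismatches were not searched, and how the reads of these copies were assigned was not tested. Of all 50-base stretches in Trbv13-2 and in Trbv13-3, 99.7% occurred in no other gene's annotated transcripts, and 100% in Trbv13-1 and Trbv12-1. The value was 98.8% in Trbv12-2 and in Trbv12-3. Over all 35 segments, 28 had only stretches of their own. Exceptions of another size were Trbv4, at 27.9%, Trbv5, at 22.6%, and Trbv8, at 0%. Trbv4 and Trbv5 lie inside the long noncoding RNA gene 5830405F06Rik (chr6:41055883-41063102, plus strand) and share sequence with it, and the pseudogene Trbv8 shares sequence with AC153851.1. Trbv5 was assigned 664, 674 and 971 reads and Trbv4 227, 229 and 385 reads in libraries 1, 2 and 3, against 20.7, 19.6 and 29.1 reads for the noncoding gene. The split of shared reads between Trbv4, Trbv5 and the noncoding gene is therefore uncertain.

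All 35 segments lie on chromosome 6, with 34 on the plus strand. Trbv31 is the exception, and it lies beyond the constant genes on the minus strand, from where it is known to join by inversion. Shares were summed over 4 zones of the locus. Trbv1, which lies 641 kb before Trbd1 (the first D segment) and apart from the other segments, took 7.84%, 7.10% and 5.95% of Trbv reads. The distal part of the main cluster, Trbv2 to Trbv17, with 13 functional segments in 116 kb, took 67.9%, 65.8% and 66.4%. The proximal part, Trbv18 to Trbv30, with 7 functional segments in 107 kb, took 19.3%, 21.4% and 22.1%. Trbv31, at -24.5 kb on the same scale, took 4.90%, 5.78% and 5.51%.

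Per functional segment, the distal part averaged 5.13% and the proximal part 2.93%. The proximal average rested on Trbv19, the functional segment of that part farthest from Trbd1, which alone took 12.0%. The medians per functional segment were 4.46% in the distal part and 1.29% in the proximal part. Functional shares ran from 1.81% to 13.0% in the distal part and from 0.0314% to 12.0% in the proximal part, so the ranges overlapped. Over the 20 functional segments of the main cluster, Spearman's rho between distance to Trbd1 and mean share was 0.508. This is a description, since the segments share libraries and length varies along the cluster. The boundary between the parts was the middle of the cluster's span. With the boundary at the middle segment instead, the distal part took 48.3% and the proximal part 39.3%.

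**Figure D2:**
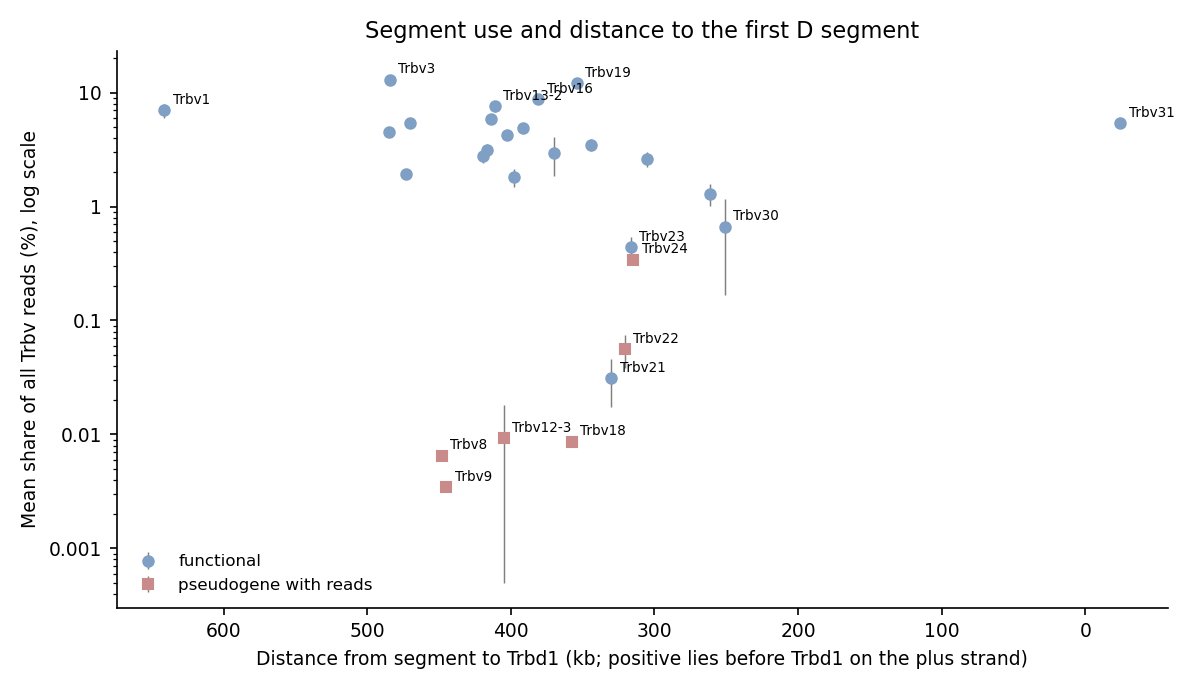
Mean share of all Trbv reads (%, log y axis) against distance to Trbd1 (kb, x axis; segments before Trbd1 at the left) for the 22 functional segments (blue circles) and the 6 pseudogenes with reads (red squares); bars are SD over 3 libraries, drawn where smaller than the mean. Trbv21, at 0.0314%, is the functional segment among the pseudogenes' values, and the pseudogenes Trbv24 and Trbv22 have the highest shares of their type, at 0.342% and 0.0561%.

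Trbv24 (Tcrb-V17, ENSMUSG00000102955.1, chr6:41218091-41218557, plus strand) stood out among the pseudogenes. It had 44, 38 and 67 reads in libraries 1, 2 and 3, which were 79.3%, 80.8% and 80.7% of all pseudogene reads. Without it the other 12 pseudogenes had 11.5, 9.02 and 16.0 reads together, of which 9, 7 and 7 were from Trbv22. Its share of 0.348%, 0.330% and 0.348% came close to that of its functional neighbour Trbv23, at 0.325%, 0.486% and 0.509%, and the pair could not be ordered. Its level was 8.38 ± 1.52 TPM, against 10.9 ± 3.76 TPM for Trbv23 (SD, n = 3).

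The annotation differs for this segment. GENCODE M21 lists Trbv24 as a pseudogene, and the RefSeq gene table (GRCm38.p6) lists it as a V segment. Alleles of it are known to be functional in some mouse strains and not in others. The reverse held for Trbv29 (Tcrb-V7), a functional segment in GENCODE and a pseudogene in RefSeq, which had 138, 134 and 310 reads. With the RefSeq types, functional segments took 98.6% of Trbv reads, against 99.6% with the GENCODE types. All 35 genes matched an entry of that table.

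The V exon of Trbv24 is shown whole because its reading frame bears on its type. Exons and start codons were read from the transcript with most reads of each segment. The Trbv24 transcript has 2 exons, as have those of 21 of the 22 functional segments and Trbv12-3. Those of the other 11 pseudogenes and Trbv21 have 1. Trbv21 has another annotated transcript, of 381 bases, whose exons were not counted. The frame of Trbv24, which starts with ATG at its first base, was open except for 1 stop codon, TAG at position 325 of 347. The second exon, positions 50 to 347, is printed with the stop codon in capitals.
Trbv24 (chr6:41218260-41218557, plus strand): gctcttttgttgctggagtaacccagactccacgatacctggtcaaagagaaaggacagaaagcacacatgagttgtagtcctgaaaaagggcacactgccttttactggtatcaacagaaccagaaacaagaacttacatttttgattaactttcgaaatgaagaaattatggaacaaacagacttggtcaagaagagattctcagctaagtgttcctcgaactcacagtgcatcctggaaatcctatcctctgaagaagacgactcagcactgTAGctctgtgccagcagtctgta

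The stop lies just before the cysteine codon. The end of Trbv24 is set beside that of Trbv26 (Tcrb-V3), a functional segment with which it shared 74.4% of bases over the whole transcript. Capitals mark the cysteine codon of each, and also the stop codon of Trbv24.
Trbv24 (chr6:41218508-41218557, plus strand): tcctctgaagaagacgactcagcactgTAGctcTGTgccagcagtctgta
Trbv26 (chr6:41227944-41227993, plus strand): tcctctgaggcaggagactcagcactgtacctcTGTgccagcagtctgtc
Counted from 1 at the 5′ end of these 50 bases, with the base of Trbv26 first, the differences were G9A, C11A, G14A, A15C, C30G and C50A. C30G lies in the stop codon. Read over the whole transcript in all 3 frames, 6 of the 22 functional segments (Trbv1, Trbv2, Trbv3, Trbv4, Trbv16 and Trbv19) and 12 of the 13 pseudogenes had no frame without a stop. The other pseudogene was Trbv10, which had 0 reads. Read from the annotated start, which was available for 21 functional segments, 20 had no stop in frame, and Trbv4 had TAA 2 bases before its annotated end.

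For 6 segments the annotation holds more than 1 transcript. Trbv13-1 reads were split into 64.2% ± 6.79 for the transcript of 334 bases and 35.8% ± 6.79 for that of 366 bases (SD, n = 3). For Trbv26 the split was 56.2% ± 5.02 for 344 bases and 43.8% ± 5.02 for 367 bases. For Trbv31 it was 80.8% ± 1.08 for 334 bases and 19.2% ± 1.08 for 416 bases. In all libraries the shorter transcript of these segments had the larger part. Trbv30 reads all went to the transcript of 335 bases. The estimates for Trbv21 and Trbv23 went wholly to 1 transcript in some libraries and to the other in others, so they gave no stable split.

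The libraries differed in Trbv reads beyond counting error. A chi-square test of each gene's reads against library sizes, adjusted by the Benjamini-Hochberg method over the 17190 genes that averaged at least 10 reads, called 21 of the 22 tested segments. The background was high, since the test called 80.0% of all genes tested. Among genes that averaged at least 50 reads it called 21 of 21 segments and 87.1% of all genes. With such a background the count says little about the segments in particular. The 13 segments that were not tested had fewer reads. The exception among those tested was Trbv24, with an adjusted p of 0.0638. The largest statistics belonged to Trbv19 (280), Trbv13-2 (267), Trbv16 (192), Trbv3 (140) and Trbv13-1 (128). The statistic grows with the number of reads, so this is not an order by relative difference. Scaled to library size, the highest library stood 1.46-fold above the lowest for Trbv3. For Trbv30 it stood 4.04-fold above, with a statistic of 74.2.

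Library 3 stood highest for most segments. It had the highest CPM (reads per 1000000 gene reads) for 20 of the 22 tested segments, with Trbv17 and Trbv30, both highest in library 1, as the exceptions. Library 3 was also highest for 39.1% of all genes tested and for 72.1% of tested Trav segments. Trbv19 had 75.8 CPM in library 3, against 45.8 in library 1 and 50.6 in library 2. Trbv29 had 9.62 CPM in library 3, against 4.56 and 4.74 in libraries 1 and 2, the largest relative difference, at 0.97 on the log2 scale. The median over the 22 segments was 0.54 (1.45-fold), against -0.003 for all tested genes. Without library 3 the test called 10 of 22 segments, against a background of 54.1%. Without library 1 it called 20, against 65.1%, and without library 2 it called 19, against 66.2%.

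Short genes as a whole were shifted in the same direction in library 3. The 1054 tested genes in the length range of the Trbv genes, 260 to 566 bases, had a median of 0.26 (1.19-fold), and the 256 protein-coding genes among them had 0.36 (1.28-fold). Tested Trav segments had 0.30. Library 3 was highest for 60.9% of the tested genes in that length range and for 76.6% of the protein-coding ones. The value was 90.9% for tested Trbv segments. The part of length in the Trbv shift was not tested. The receptor genes Trac, Cd3d, Cd3e, Cd3g and Cd247 encode the alpha constant region and the signalling chains. They were all called, against a background of 80.0% of all genes tested. They were also all highest in library 3, as were 39.1% of all genes tested. Their median was 0.40. Trbc1 had 1759 TPM in library 3, against 1378 and 1323 TPM in libraries 1 and 2, and Trbc2 had 3644, against 2820 and 2726 TPM. In library 3 regulatory T cell markers summed to 719 TPM, against 795 and 864 TPM.

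**Figure D3:**
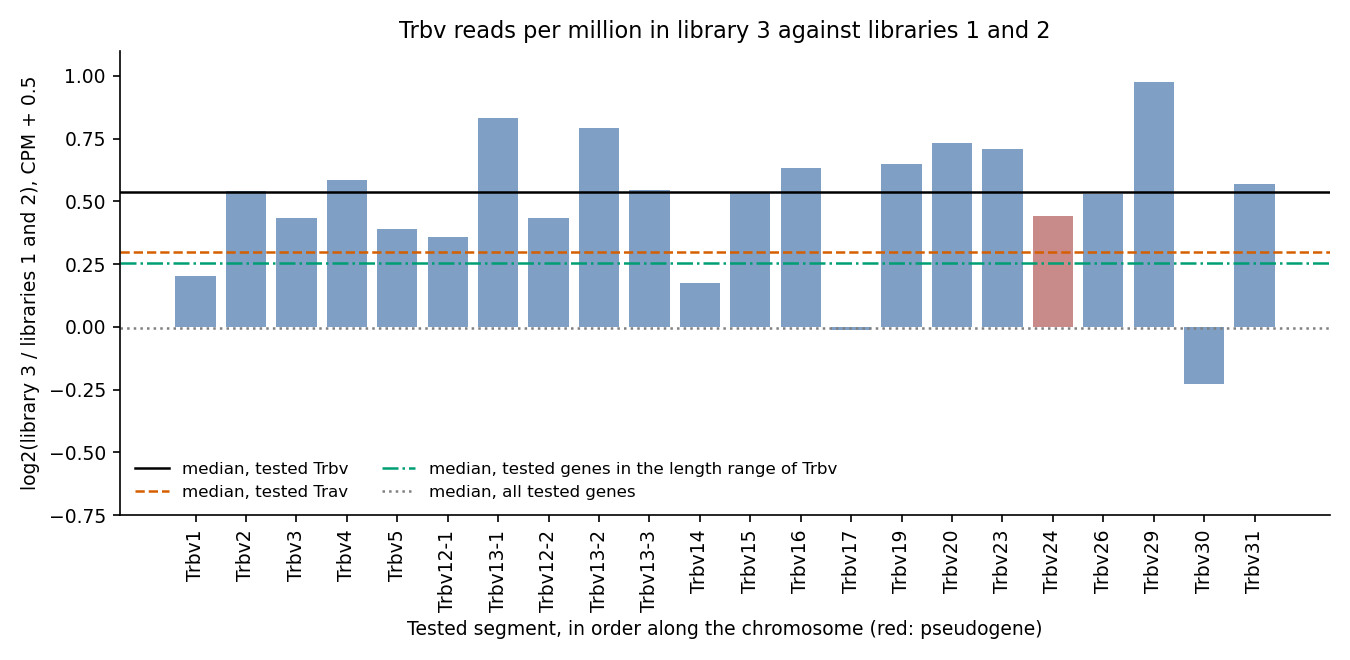
Difference of library 3 from the mean of libraries 1 and 2 (y axis, log2 of CPM plus 0.5) for the 22 tested segments in their order along the chromosome (x axis; bars start at 0; red for the pseudogene Trbv24); lines give medians of gene groups. The bars of 20 segments lie above 0, the median of Trbv is 0.54, that of Trav 0.30, that of genes of the same length range 0.26 and that of all tested genes -0.003.

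The segments were also compared relative to the summed Trbv reads. This scale removes by construction any shift that the segments share, and fewer calls can follow from that alone. With library sizes replaced by all Trbv reads, so that shares are compared, the test called 14 of 22 segments. On that scale the median of all genes in library 3 moved by -0.54 (log2) and the background was 85.0%. With the reads of Trbc1 and Trbc2 as library sizes it called 15, also against 85.0%. Trbv2, Trbv4, Trbv12-2, Trbv13-3, Trbv15, Trbv16 and Trbv24 were not called on either scale. The share of Trbv2 was the steadiest, at 4.46%, 4.43% and 4.50%, with a coefficient of variation of 0.819%. The coefficient was under 10% for 11 of the 22 detected segments and had a median of 12.0% over functional segments.

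The shares that moved most were those of Trbv17 and Trbv30, each higher in library 1. Trbv17 (Tcrb-V9) had 532, 274 and 435 reads in libraries 1, 2 and 3, which were 4.21%, 2.38% and 2.26% of Trbv reads. Its exact 95% binomial interval was 3.87% to 4.58% in library 1, apart from 2.11% to 2.67% in library 2 and 2.05% to 2.48% in library 3. Trbv30 made up 1.23%, 0.313% and 0.446%, a 3.95-fold range, with intervals of 1.05% to 1.44%, 0.219% to 0.433% and 0.357% to 0.551%. These segments had the largest statistics on the Trbv scale, 114 with an adjusted p of 3.82e-25 for Trbv17 and 100.3 with an adjusted p of 3.99e-22 for Trbv30. Trbv1 came next, at 41.7, with shares of 7.84%, 7.10% and 5.95%, and Trbv13-2, at 31.4, ran the other way, with 6.81%, 7.34% and 8.51%.

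No library held the extremes throughout. Among detected segments, 7 had their highest share in library 1, 6 in library 2 and 9 in library 3. In 14 of 22 the highest and the lowest library had intervals that did not overlap. The share of all genes with such intervals was not computed, so the count says little about the segments in particular. On the scale of Trbv reads, the chi-square test called 85.0% of all genes tested. Library 1, where Trbv17 and Trbv30 were high, is also the library with the high erythroid markers, and the part of other cells in these shares was not tested. For Trbv17 and Trbv30, 100% of the 50-base stretches occurred in no other gene's annotated transcripts. That search covered exact matches only, and how the reads of these segments were assigned was not tested.

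**Figure D4:**
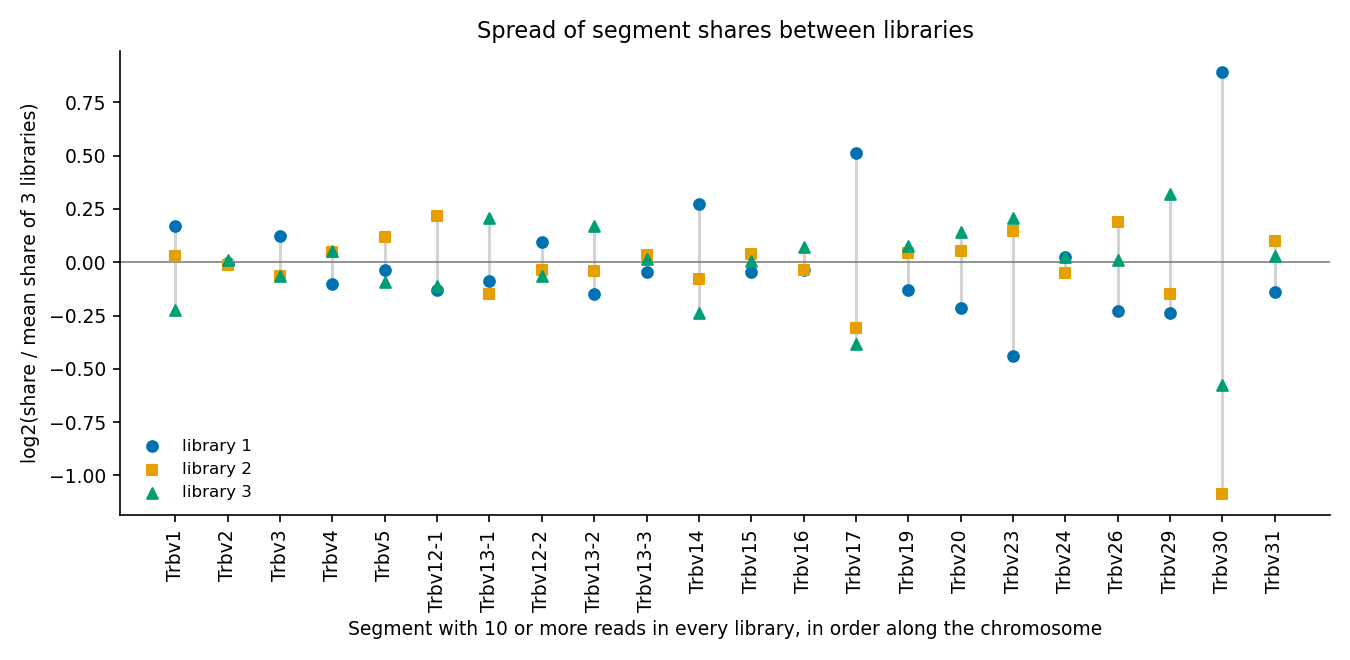
Share of each detected segment in each library relative to its mean over the 3 libraries (log2, y axis), in their order along the chromosome (x axis); circles, squares and triangles are libraries 1, 2 and 3 and grey lines span them. Trbv30 spreads from 0.89 in library 1 to -1.09 in library 2, Trbv17 lies at 0.51 in library 1, and Trbv2 stays between -0.01 and 0.01.

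By its profile of shares over the 3 libraries, Trbv3 was most like Trbv12-2, then Trbv24 and Trbv2, with Euclidean distances of 0.0402, 0.132 and 0.156 between log2 share deviations, out of 21 segments compared. With 3 libraries this likeness is a description.

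Other genes of the locus and of the recombination machinery were set beside the segments. The trypsinogen genes, which lie within the beta locus and encode pancreatic digestive enzymes, were close to silent. Of 10 found, 6 had 0 reads in every library, and Prss2, with 24.0, 17.0 and 21.7 reads, was the 1 tested, and it was not called. Of the 11 genes of the recombination list, 9 were tested and 6 were called, against the background of 80.0%. Rag1 and Rag2, which encode the recombinase that cuts V, D and J segments, had 4, 0 and 2 reads and 0, 0 and 6 reads in libraries 1, 2 and 3. Dntt, which encodes the enzyme that adds bases at the junctions, had 15, 6 and 19 reads.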

How the data were processed

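Polyadenylated RNA-seq of 1 biological replicate in 3 technical libraries was used. Expected counts per gene, as deposited by the authors, are reads assigned to genes of mm10 with GENCODE M21 and are not normalized. TPM, as deposited by the authors, is scaled for length. The posterior mean columns hold a second estimate of both. A smaller deposited table holds whole-number read counts for 22457 genes, compressed at high counts, and served as an alternative. The sources used here do not give the kit, the strandedness, the aligner or the counting program, so reads of overlapping genes on opposite strands cannot be told apart. Reads implied by the deposited lengths are 50 bases.

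Totals were 30362256, 28419259 and 31959927 gene reads; spike-in and transfer RNA entries took 0.166% to 0.229% of all reads and were left out. Genes with 0 reads allow up to 3. Shares are of all Trbv reads, with exact (Clopper-Pearson) 95% intervals. Expected counts were rounded and set against TMM library sizes (edgeR 4.0.16, R 4.3.3) in a chi-square test with 2 degrees of freedom, adjusted at 0.05 by Benjamini-Hochberg over the 17190 genes that averaged at least 10 reads. With no second group, edgeR's quasi-likelihood test had no contrast. DESeq2 1.42.0 gave alternative size factors. Differences of a library from the others are on log2 of CPM (reads per 1000000 gene reads, TMM-scaled) plus 0.5. The chi-square test was run on simulated counts with counting noise only and known changes in library 3. It recovered 46% of 1.2-fold, 62% of 1.5-fold, 88% of 2-fold and 100% of 4-fold changes. The other calculations had no simulated test. Sequences are those of GENCODE M21 transcripts, aligned with Biopython 1.88, and older names and types come from RefSeq GRCm38.p6. Calculations ran in Python 3.11.15 with scipy 1.17.1, pandas 2.3.3 and numpy 2.4.6.

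All Trbv genes could be named, and in full the 8 most used, the 3 lowest functional, the 3 pseudogenes with most reads, Trbv1, Trbv31, the Trbv12 and Trbv13 families and the 5 with the largest chi-square. The members, gene lists and tests were chosen with earlier results of these data known. Alternatives covered thresholds, estimates, tables, scales and each library left out.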

Additional observations from a re-analysis of the deposited data

Results flagged for a closer look

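The D segments Trbd1 and Trbd2, which join between V and J and lie in the same locus, had reads in the smaller gene table, whose values stand outside the main measurement. Trbd1 had 36, 35 and 42 reads and Trbd2 had 19, 27 and 40 reads in libraries 1, 2 and 3, above the 3 reads that a count of 0 allows. In the larger table both were listed at 0, with effective lengths of 0 for segments of 12 and 14 bases. The segments are shorter than a read, and the sequence that these reads hold was not tested.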

How the results depend on the processing

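No paired analysis was possible because the libraries form 1 group and no other group shares their numbers. The 22 detected segments and the 21 called ones stayed within 1.5 times under every alternative run, apart from the call count without library 3, when 10 were called; leaving out 1 library gave 10 to 20. TPM in place of reads moved the Trbv share of the total to 0.209%, the functional share to 99.5%, the distal part to 68.3%, the proximal part to 18.8%, Trbv31 to 6.35%, the 8 most used segments to 62.2% and the effective number to 17.7. The smaller table moved the Trbv share to 0.0839% and the 8 most used to 56.4%; in it high counts are compressed, and it holds no Trbv pseudogene, so a functional share and an effective number were not computed there. A boundary at the middle segment gave 48.3% distal and 39.3% proximal. Functional shares were 99.7% over segments with a mean of 10 or more reads, 98.6% with RefSeq types and 99.5% without Trbv4, Trbv5 and Trbv8, the last 2 alternatives chosen after seeing the data, as were the scalings to Trbv and to Trbc reads. Over functional segments only, the 8 most used took 65.2%, and the inverse Simpson index was 14.1. For these values the cause was not tested beyond how each alternative is built. Of the single segments, 12 of 22 moved by over 1 SD with TPM and 16 of 20 in the smaller table, and none of 22 did with posterior means. Leaving out 1 of 3 libraries cannot move a mean by 1 SD, so it says nothing about stability of the shares by that measure; the mean share of Trbv30 was 0.380% without library 1, against 0.665% with it. The labels give 1 biological replicate, so spread between animals is not measured here, and depth limits the 13 segments below 10 reads.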
